A study of Mus musculus with 24 samples.

Results

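The genes described here encode subunits of the transcription factor NF-κB and the inhibitors and cofactors that act on it. They are the subunit genes Nfkb1, Nfkb2, Rela and Relb, the cytoplasmic inhibitor genes Nfkbia and Nfkbie, the feedback inhibitor gene Tnfaip3, and the genes of the nuclear IκB proteins, Nfkbiz, Nfkbid and Bcl3. They were taken by symbol as a listed set of 10 among 24421 gene lines of a count table, without regard to their values. All 10 passed the filter on low counts, which kept 14205 genes for testing.

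The counts came from bulk RNA-seq of blood-forming cells of male C57BL/6 mice, 4 of them young (12 weeks) and 4 aged (107 weeks). Bone marrow enriched for CD117 (Kit) was sorted for Lin-Sca1+Kit+ cells of 3 kinds. The first, called LT-HSC (long-term hematopoietic stem cells), carry CD150 but not CD48. The others were short-term stem cells (ST-HSC), which carry neither, and multipotent progenitors (MPP), which carry CD48 but not CD150. Each of the 6 groups of age and population had 4 libraries. They are numbered 1 to 4 here in the order of their titles. Within each age the titles run through LT-HSC, ST-HSC and MPP in turn. No mouse carried a transgene or received a treatment that the labels name. The labels do not say whether libraries with the same number came from the same mouse, so p-values measure the spread between libraries.

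As background, NF-κB is a dimer of Rel family proteins that is held in the cytoplasm by IκB proteins until an inflammatory or stress signal, such as TNF, IL-1 or a Toll-like receptor ligand, leads to IκB degradation. The freed dimer enters the nucleus and switches on inflammatory genes, among them the genes of its own inhibitors, which ends the response. Nuclear IκB proteins instead bind p50 or p52 dimers on chromatin and change which target genes are read. In stem cells of the marrow, inflammatory signals through this pathway are known to affect quiescence, self-renewal and the output of myeloid cells.

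Libraries held between 7307151 and 12946550 counts. Slamf1 and Cd48 were highest in the groups gated for them. Slamf1 (CD150) had group means of 26.2 and 72.1 CPM (library-size-scaled counts, with TMM factors applied) in young and aged LT-HSC and under 1 CPM in the other groups. Cd48 had means of 66.4 and 90.2 CPM in young and aged MPP, 11.5 and 14.4 CPM in ST-HSC, and 1.25 and 0.178 CPM in LT-HSC. Means of Ly6a (Sca1) ran from 30.2 CPM in young MPP to 90 CPM in aged LT-HSC, and those of Kit from 1040 CPM in aged MPP to 1690 CPM in aged LT-HSC. Some libraries or groups had more counts in genes that serve as markers of other cell types. Bulk counts cannot tell whether these came from other cells or from the sorted cells themselves. Young LT-HSC library 1 had 682 CPM of Mpo, a gene of myeloid progenitors, against a group low of 0.533 CPM. Aged ST-HSC libraries 1 to 3 held granulocyte markers at 0.0704% to 0.184% of counts, against 0.0065% in library 4. In aged MPP, 14 B and plasma cell markers together took 0.188% to 0.895% of counts, against 0.00937% to 0.0407% in young MPP. A gene was called where edgeR's quasi-likelihood test gave a p under 0.05 after Benjamini-Hochberg adjustment over all tested genes, and every adjusted p below is of this kind unless another tool is named.

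Nfkbia, Tnfaip3, Nfkbie and Nfkbid carry the κB consensus, the sequence that NF-κB dimers bind, in the stretch just before a transcription start. RefSeq promoter windows (build GRCm38.p6) were found for 7 of the 10 genes, 12 windows in all; Nfkb1, Relb and Nfkbiz had no entry. In the 250 bases before each start, the 10-base κB consensus was searched on both strands, with overlapping matches counted, and 5 of the 7 genes had a match in at least 1 window. Among all genes in the same table the share was 8.23% (2225 of 27025). The stretches around the matches of the inhibitor genes whose levels are described below are printed 5′ to 3′ on the strand of the gene, with the matches in capitals. They lie at chr12:55492648-55492701 on the minus strand (Nfkbia), chr10:19015411-19015560 on the minus strand (Tnfaip3), chr17:45555569-45555628 on the plus strand (Nfkbie) and chr7:30422156-30422259 on the plus strand (Nfkbid), and none of the 4 stretches overlaps an annotated exon.
Nfkbia: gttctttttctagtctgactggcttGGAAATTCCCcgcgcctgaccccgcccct
Tnfaip3: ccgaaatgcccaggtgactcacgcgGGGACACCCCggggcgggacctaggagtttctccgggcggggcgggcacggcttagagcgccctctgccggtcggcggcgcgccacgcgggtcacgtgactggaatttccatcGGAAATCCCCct
Nfkbie: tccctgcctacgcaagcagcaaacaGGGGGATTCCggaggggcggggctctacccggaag
Nfkbid: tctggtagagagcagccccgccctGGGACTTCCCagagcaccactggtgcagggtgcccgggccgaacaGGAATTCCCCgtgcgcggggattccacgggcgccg

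The matches start 29 bases before the transcription start in Nfkbia and 106 bases before it in Nfkbie. They start 125 and 12 bases before a start of Tnfaip3, and 226 and 181 bases before a start of Nfkbid. These starts of Tnfaip3 and Nfkbid, and the stretches printed for them, lie inside the annotated genes. Other windows of Tnfaip3 and Nfkbid held no match, among them the Nfkbid window nearest to the gene's 5′ end. The fifth gene with matches was Nfkb2, where the window nearest to the gene's 5′ end holds GGGAATTCCC 39 bases and GGGGCTTTCC 11 bases before its start. That window lies inside the annotated gene, and the stretch around its matches overlaps exons of Nfkb2 and of a long noncoding RNA. Later windows of Nfkb2 hold GGAATGTCCC 236 bases and GGGACTTTCC 225 bases before their starts. No match was present in the windows of Rela and Bcl3, which says only that these letters are not in those windows. A match describes the sequence and does not show that NF-κB binds there in these cells.

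All 10 genes were read in every library, at levels that differed widely between genes. Per kilobase of annotated exon (GENCODE M21 on GRCm38), the mean over the 24 libraries was highest for Nfkbiz at 85.2 CPM per kb. Nfkb1 followed at 69.4, Rela at 56.9 and Nfkbia at 50.7 CPM per kb. Nfkbid had 33.4, Tnfaip3 15.1 and Nfkb2 14.1 CPM per kb, and Nfkbie (9.97), Bcl3 (8.89) and Relb (4.94) were the lowest. Thus the subunits of the canonical dimer, p50 from Nfkb1 and p65 from Rela, had far more transcript per kilobase than Nfkb2 and Relb, the subunits of the non-canonical dimer. In aged LT-HSC, Nfkbiz reached 161 ± 31.5 CPM per kb (SD, n = 4), above Rela at 64.3 ± 4.10 and Nfkb1 at 60.9 ± 4.09 CPM per kb. In young LT-HSC the same 3 genes lay close together, at 63.9 ± 7.63 CPM per kb for Nfkbiz, 54.5 ± 0.902 for Rela and 64.6 ± 1.32 for Nfkb1.

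**Figure D1:**
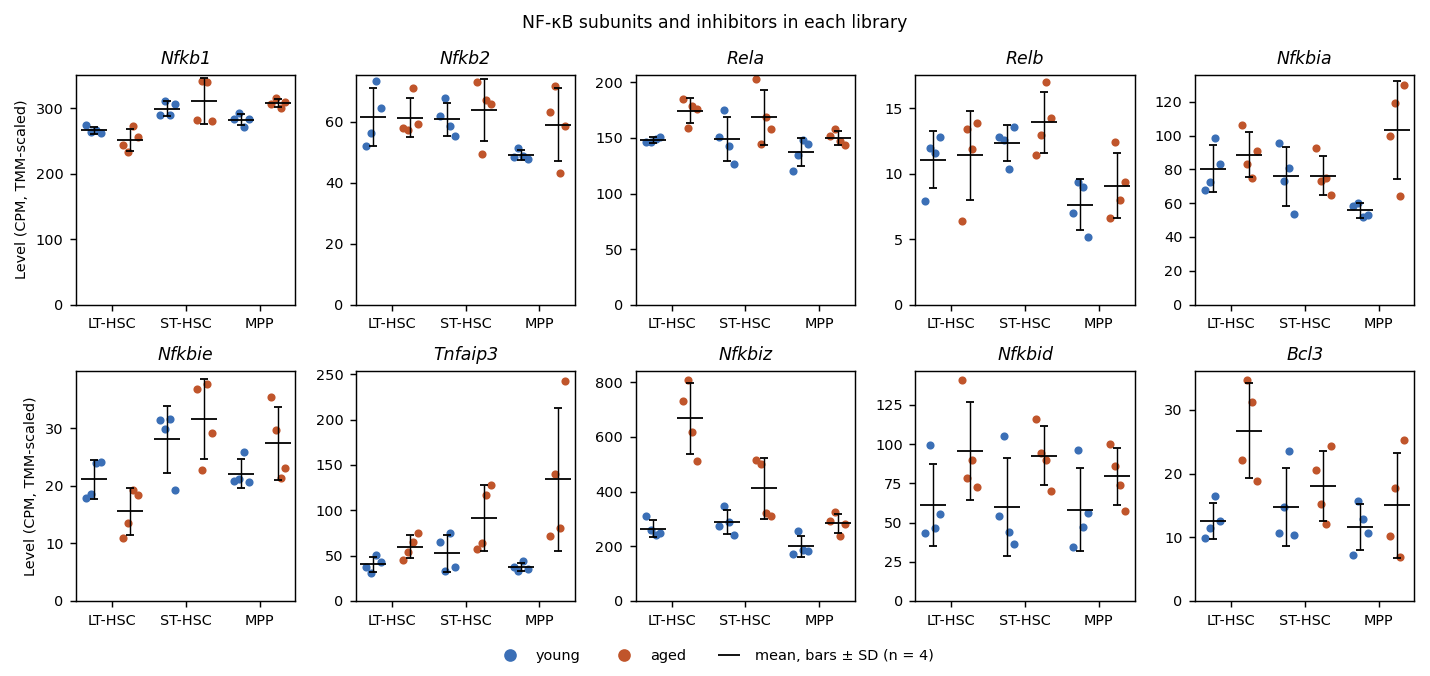
Level of each of the 10 genes (CPM, TMM-scaled, linear axis from 0) in LT-HSC, ST-HSC and MPP of young (blue) and aged (orange) mice. Points are libraries, lines are means and bars are ± SD over 4 libraries; the aged LT-HSC points of Nfkbiz (512 to 809 CPM) stand above all other libraries except the highest aged ST-HSC one, and the aged MPP points of Tnfaip3 spread from 71.9 to 243 CPM.

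Among the subunits, no gene was called for age in any population. Nfkb1 (chromosome 3, 135584655 to 135691547, minus strand), which encodes p105 and its product p50, had 274, 263, 266 and 262 CPM in young LT-HSC libraries 1 to 4 and 243, 233, 272 and 256 CPM in aged ones. These ranges overlapped, and the log2 change of -0.09 had a 95% interval from -0.23 to 0.06. In MPP the 4 aged libraries (300 to 315 CPM) all lay above the 4 young ones (271 to 292 CPM), as was so in either direction for 16.5% of tested genes, but the log2 change was 0.13 ± 0.07 (SE) with an adjusted p of 0.27.

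Rela (chromosome 19, 5637483 to 5648130, plus strand), which encodes the transactivating subunit p65, had 146, 146, 149 and 151 CPM in young LT-HSC and 185, 159, 179 and 176 CPM in aged LT-HSC. All aged LT-HSC libraries lay above all young ones, and 22.1% of tested genes did not overlap in that comparison. The log2 change was 0.24 ± 0.10 (SE), and the adjusted p of 0.083 missed the threshold. The change was 0.18 (95% interval -0.02 to 0.38) in ST-HSC and 0.13 (-0.07 to 0.34) in MPP.

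Nfkb2 (chromosome 19, 46304320 to 46312385, plus strand) encodes p100 and p52, and Relb (chromosome 7, 19606217 to 19629438, minus strand) encodes the usual partner of p52. Nfkb2 group means ran from 49.1 ± 1.57 CPM in young MPP to 63.9 ± 10.1 CPM in aged ST-HSC (SD, n = 4 each), and its log2 changes with age were -0.01, 0.07 and 0.27 in LT-HSC, ST-HSC and MPP. The exons of Nfkb2 overlap those of Psd and of a long noncoding RNA on the opposite strand, and the library chemistry as described does not mark strand, so reads there cannot be assigned with certainty. Relb was the scarcest of the 10 per kilobase, with 43 to 168 counts per library, and its changes with age lay between 0.04 and 0.26 with intervals that all included 0. Rel, the gene of c-Rel and a relative outside the set, was also not called for age, with log2 changes of -0.30, 0.22 and 0.32.

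The nuclear IκB genes Nfkbiz and Bcl3 rose with age in LT-HSC. These were 2 of the 10 genes called in that comparison, where 18.9% of all tested genes were called and 9.98% were called higher. Nfkbiz (chromosome 16, 55811375 to 55838899, minus strand) encodes IκBζ, a coactivator needed for a late group of inflammatory genes such as that of interleukin-6. Its libraries 1 to 4 had 310, 261, 240 and 247 CPM in young LT-HSC and 733, 809, 617 and 512 CPM in aged LT-HSC. Every aged library was above every young one by a wide gap, and the group means were 264 ± 31.5 and 668 ± 130 CPM (SD, n = 4). The rise was 2.53-fold, a log2 change of 1.34 ± 0.18 (SE) with an adjusted p of 1.6e-05. Over 18 other settings it stayed between 1.21 and 1.43, with the adjusted p at most 0.00019.

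In ST-HSC, Nfkbiz had 273, 349, 289 and 243 CPM in young and 515, 500, 323 and 310 CPM in aged libraries. Aged libraries 1 and 2 were above all young libraries, while aged libraries 3 and 4 fell among them. The log2 change was 0.51 ± 0.18 (SE) with an adjusted p of 0.093. This change passed the threshold with DESeq2, without aged ST-HSC library 4, and in a fit with the library number as a replicate block. For age, that block joins young and aged libraries of the same number, although these come from different mice. In MPP Nfkbiz had 171, 255, 188 and 184 CPM in young and 293, 324, 239 and 280 CPM in aged libraries. Here only aged library 3 lay within the young range, and the log2 change was 0.51 ± 0.18 (SE) with an adjusted p of 0.073. This change passed with DESeq2 (0.017) and in the fit with the replicate block.

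The age change of Nfkbiz was 0.83 ± 0.25 (SE) larger on the log2 scale in LT-HSC than in MPP, with an adjusted p of 0.038 where 9.93% of genes were called. This call is fragile: it was lost in 13 of 27 other settings, 12 of which leave out libraries, and its adjusted p ranged from 0.0023 to 0.097 while the difference stayed between 0.69 and 0.93. Against ST-HSC the difference was 0.82 ± 0.25 (SE) with an adjusted p of 0.064, where 4.05% of genes were called. That difference passed the threshold with DESeq2 and with limma-voom (adjusted p at most 0.033), and also in the fit with the replicate block. Between ST-HSC and MPP it was 0.00, with a 95% interval from -0.52 to 0.53.

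Bcl3 (chromosome 7, 19808462 to 19822770, minus strand) encodes a nuclear IκB protein that binds p50 and p52 homodimers. It had 9.85, 11.5, 16.5 and 12.6 CPM in young LT-HSC and 22.1, 34.7, 31.2 and 18.8 CPM in aged LT-HSC. The groups did not overlap, although the lowest aged library stood close to the highest young one. The rise was 2.12-fold, a log2 change of 1.08 ± 0.34 (SE) with an adjusted p of 0.029. The call was lost in 6 of 18 other settings, each of which left out a library of these groups (young 1, 2 or 4, or aged 2 or 3, or young 1 together with 2 aged ST-HSC libraries), with adjusted p up to 0.097. In ST-HSC and MPP the change was 0.28 (95% interval -0.43 to 1.00) and 0.37 (-0.36 to 1.1), and the test of its difference from LT-HSC gave adjusted p of 0.41 and 0.39. An antisense gene overlaps 55 bases of the Bcl3 exons.

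Immediate early genes, which cells switch on within minutes of a stimulus, moved in the same comparisons. The 34 listed genes took 0.927% to 1.26% of counts in aged LT-HSC against 0.406% to 0.602% in young LT-HSC, 0.763% to 1.04% against 0.339% to 0.601% in ST-HSC, and 0.604% to 0.697% against 0.226% to 0.37% in MPP. Of the 33 tested, 22, 16 and 21 were called higher with age in LT-HSC, ST-HSC and MPP, and none was called lower. That is 66.7%, 48.5% and 63.6% of them, beside 18.9%, 5.79% and 9.79% of all genes called in either direction. No listed gene was at 0 throughout a group. Their part in the changes of Nfkbiz, Bcl3 and the inhibitor genes was not tested. In LT-HSC the B and plasma cell markers were near 0 at both ages (0.00216% to 0.00376% of counts, with Ms4a1, Pax5 and Igll1 at 0 in every library). The summed shares of other marker lists did differ with age in LT-HSC. Their calls stand beside 18.9% of all tested genes called. Markers of LT-HSC themselves took 0.391% to 0.505% of counts in young and 0.57% to 0.595% in aged libraries, with 5 of 12 called higher. Markers of MPP took 0.0221% to 0.0928% in young and 0.012% to 0.0132% in aged libraries, with 6 of 10 called lower. T and NK cell markers stood at 0.0029% to 0.00358% in young and 0.00947% to 0.0139% in aged libraries, with 2 of the 5 tested called higher and Cd3e, Cd3g, Bcl11b, Ncr1, Gzma and Klrd1 at 0 at both ages. Dendritic cell markers took 0.0236% to 0.0257% and 0.0342% to 0.0404%, with 2 of the 9 tested called higher and 1 lower. Those of mast cells, basophils and eosinophils took 0.0367% to 0.0478% and 0.0579% to 0.0659%, with 1 of the 7 tested called higher and Mcpt8, Fcer1a, Prss34 and Tpsb2 at 0 at both ages. Endothelial and stromal markers took 0.0136% to 0.0186% and 0.0195% to 0.024%, with 2 of the 9 tested called higher. Within a list the genes did not all go one way. Log2 changes were above 0 for 2 of 5 tested T and NK cell markers and 6 of 9 dendritic cell markers. They were above 0 for 4 of 7 mast cell, basophil and eosinophil markers and 4 of 9 endothelial and stromal markers. The part of these lists in the rise of Nfkbiz and Bcl3 was not tested. A bulk measurement cannot tell fewer cells of a type from less RNA per cell.

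Nfkbid (chromosome 7, 30421732 to 30428746, plus strand), which encodes the nuclear inhibitor IκBNS, had the same library number highest in all 3 populations of an age. Young libraries 1 to 4 had 43.3, 99.1, 46.2 and 55.7 CPM in LT-HSC. They had 54.4, 105, 44.1 and 36.2 CPM in ST-HSC, and 34.2, 96.0, 47.1 and 55.8 CPM in MPP. Library 2 was the highest in all 3 young populations, and its lowest value was 1.72 times the highest value of any other young library. This was noticed after the values were seen. At a ratio over 1.5, also set after seeing them, Nfkbid was the only gene to do so among 9784 genes with a mean of at least 10 CPM (0.0102%), while 7.27% of tested genes had one number highest in all 3 young populations at any ratio. In aged mice, library 1 was the highest in all 3 populations, at 141, 116 and 100 CPM, against at most 94.5 CPM in the others. That is a ratio of 1.06, and 9.26% of tested genes had one number highest in all 3 aged populations at any ratio. Tnfaip3 also had one number highest throughout an age, library 3 in young and library 4 in aged mice, but there the lowest value of that number (44.4 and 74.5 CPM) was below the highest of the other libraries (64.5 and 140 CPM). The labels give no mouse for a number.

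**Figure D2:**
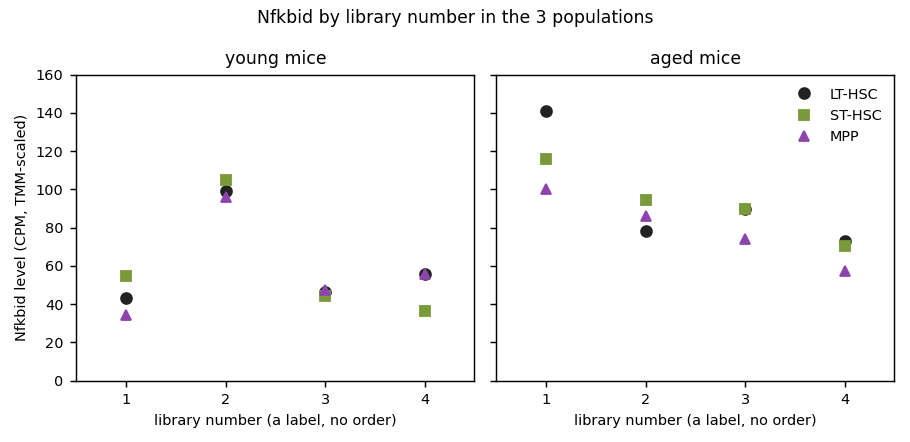
Nfkbid level (CPM, TMM-scaled) by library number in young (left) and aged (right) mice, one point per library and one symbol per population. The 3 young libraries numbered 2 sit between 96.0 and 105 CPM and the other 9 young libraries between 34.2 and 55.8 CPM.

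The means of Nfkbid were 61.1 ± 25.9 CPM in young and 95.5 ± 31.3 CPM in aged LT-HSC (SD, n = 4). Its log2 changes with age were 0.65, 0.63 and 0.45 in LT-HSC, ST-HSC and MPP, none of them called, with 95% intervals from -0.10 to 1.40, -0.12 to 1.38 and -0.30 to 1.20. The young libraries numbered 2 overlapped the aged range in every population.

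The inhibitor genes Nfkbia and Tnfaip3 rose with age in MPP. They were 2 of the 10 genes called there, where 9.79% of all tested genes were called and 5.53% were called higher. Nfkbia (chromosome 12, 55489410 to 55492647, minus strand) encodes IκBα, which binds p65 dimers and returns them to the cytoplasm. It had 58.3, 60.3, 51.6 and 52.7 CPM in young MPP and 99.7, 119, 64.4 and 130 CPM in aged MPP. The aged libraries all lay above the young ones, with aged library 3 close to them. The rise was 1.85-fold, a log2 change of 0.89 ± 0.18 (SE) with an adjusted p of 0.0029. In LT-HSC and ST-HSC the change was 0.14 (95% interval -0.24 to 0.52) and 0.01 (-0.37 to 0.39). The age change in LT-HSC minus that in MPP was -0.75 (adjusted p 0.067), and the change in ST-HSC minus that in MPP was -0.88 (adjusted p 0.17, where 0.465% of genes were called), so neither difference passed.

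Tnfaip3 (chromosome 10, 19000910 to 19015657, minus strand) encodes A20, a ubiquitin-editing enzyme that shuts off signalling from TNF and Toll-like receptors. It had 37.0, 33.1, 44.4 and 35.2 CPM in young MPP and 71.9, 140, 80.9 and 243 CPM in aged MPP. All aged libraries were above all young ones, and aged library 4 stood well above the rest. The rise was 3.57-fold, a log2 change of 1.84 ± 0.37 (SE) with an adjusted p of 0.0034. In ST-HSC the aged libraries had 56.8, 64.2, 117 and 128 CPM and the young ones 64.5, 33.1, 74.8 and 37.0 CPM, which overlapped, for a log2 change of 0.80 ± 0.36 (SE) and an adjusted p of 0.22. In LT-HSC the change was 0.56 ± 0.36 (SE) with an adjusted p of 0.31. Neither change differed from that in MPP beyond the threshold, with adjusted p of 0.13 for LT-HSC and 0.60 for ST-HSC.

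The summed share of B and plasma cell markers moved with both genes in MPP. Of the 14 markers, only 8 had a log2 change above 0 with age. In aged MPP 7 were called higher and none lower, and none was at 0 in all libraries of either age. Together the 14 markers took 0.236%, 0.349%, 0.188% and 0.895% of counts in aged libraries 1 to 4. The libraries with the most marker counts, 4 and 2, were also the highest for Tnfaip3 and for Nfkbia. Without these 2 libraries, which leaves 2 in the aged group, the log2 change was 0.55 for Nfkbia (adjusted p 0.13) and 1.02 for Tnfaip3 (adjusted p 0.11), and none of the 10 genes was called. Over all genes, 520 of 14732 tested genes were then called in place of 1391 of 14205. Other lists are given beside the 9.79% of all tested genes called for age in MPP. LT-HSC markers took 0.113% to 0.147% of counts in young MPP and 0.0631% to 0.0724% in aged MPP, with 5 of 12 called lower. Monocyte and macrophage markers took 0.0234% to 0.0346% in young and 0.0344% to 0.0795% in aged MPP, with 2 of the 14 tested called higher, and aged library 4 again had the most. Dendritic cell markers took 0.072% to 0.0767% and 0.072% to 0.0887%, with 4 of the 9 tested called higher. The shares of mast cell, basophil and eosinophil markers, T and NK cell markers, MPP markers and endothelial and stromal markers overlapped between the ages, with 2 of 7, 1 of 5, 1 of 10 and 3 of 9 tested called higher and 1 endothelial or stromal marker called lower. The part of B lineage cells and of these other lists in the rise was not tested.

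**Figure D3:**
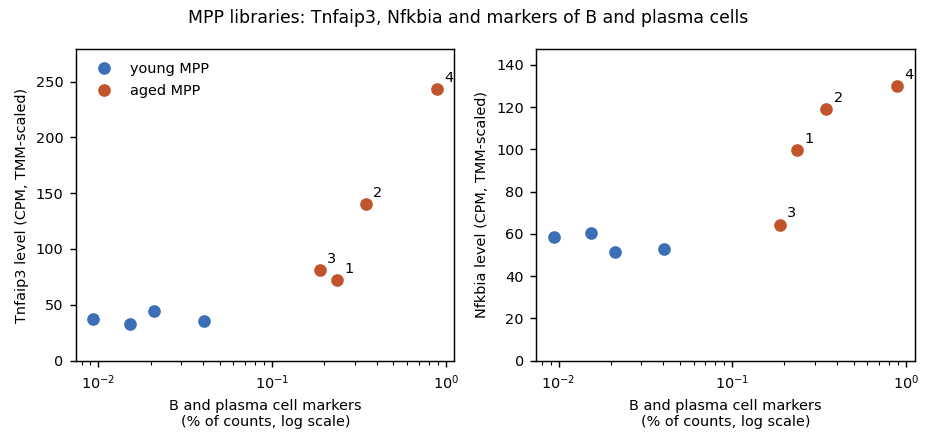
Tnfaip3 (left) and Nfkbia (right) level (CPM, TMM-scaled) against the share of counts in 14 B and plasma cell markers (percent, log axis) in young (blue) and aged (orange, numbered) MPP libraries. Aged library 4 is the highest on every axis (243 and 130 CPM at 0.895%), and all young libraries lie at or below 0.0407%.

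Nfkbie (chromosome 17, 45555703 to 45563169, plus strand) encodes IκBε, an inhibitor that acts mainly on p65 and c-Rel dimers. It had 17.9, 18.5, 23.9 and 24.1 CPM in young LT-HSC and 10.9, 13.5, 19.3 and 18.4 CPM in aged LT-HSC. The ranges overlapped, and the log2 change of -0.45 ± 0.20 (SE) had an adjusted p of 0.13. It was 0.17 in ST-HSC and 0.31 in MPP, with 95% intervals of -0.24 to 0.59 and -0.11 to 0.73. The difference of the LT-HSC change from that in MPP was -0.76 ± 0.29 (SE) with an adjusted p of 0.092.

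In ST-HSC none of the 10 genes was called for age by edgeR's quasi-likelihood test, where 5.79% of all genes were called. Nfkbiz and Tnfaip3 had an unadjusted p under 0.05. DESeq2 called Nfkbiz, as did the fit with the library number as a replicate block, and limma-voom called none. All 10 log2 changes were above 0 in ST-HSC and in MPP, and 7 of 10 in LT-HSC. The medians were 0.18, 0.34 and 0.19, beside medians of 0.01, 0.00 and 0.00 over all tested genes. In aged ST-HSC the markers of multipotent progenitors took 0.156% to 0.374% of counts, against 0.133% to 0.164% in young ST-HSC, with 1 of 10 called higher. Granulocyte markers took 0.0065% to 0.184% against 0.00328% to 0.0338%, with 3 of the 9 tested called higher. Monocyte and macrophage markers took 0.03% to 0.0726% against 0.0208% to 0.0313%, with 2 of the 14 tested called higher. Of 9 tested dendritic cell markers, 2 were called higher. The part of these lists in the values of the 10 genes was not tested.

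**Figure D4:**
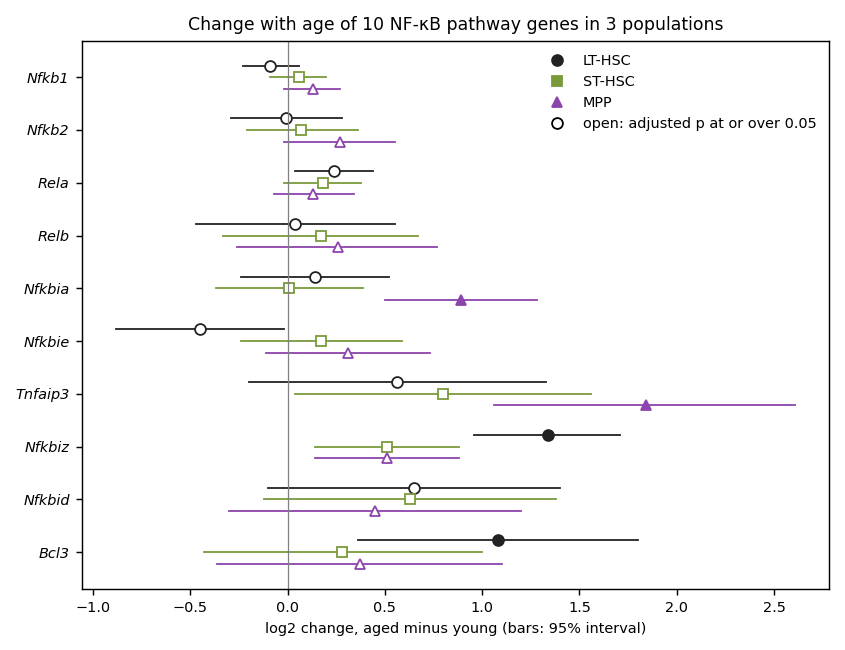
Log2 change with age (aged minus young, bars are 95% intervals) of the 10 genes in LT-HSC (circles), ST-HSC (squares) and MPP (triangles), with filled symbols for an adjusted p under 0.05. Filled symbols are Nfkbiz (1.34) and Bcl3 (1.08) in LT-HSC and Nfkbia (0.89) and Tnfaip3 (1.84) in MPP.

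Differences between populations were tested within each age, and the 3 comparisons of one age share their groups. In young mice none of the 10 genes was called by edgeR's quasi-likelihood test between LT-HSC and ST-HSC, where 12.5% of all genes were called; only Nfkb1 had an unadjusted p under 0.05, and DESeq2 and limma-voom called none. Between young LT-HSC and young MPP, where 37.2% of genes were called, 1 of 10 passed: Nfkbia was 1.45-fold higher in LT-HSC, with 67.7, 72.5, 98.8 and 82.9 CPM against 51.6 to 60.3 CPM, a log2 difference of 0.53 ± 0.18 (SE) and an adjusted p of 0.026. Between young ST-HSC and young MPP, where 20.6% of genes were called, 2 of 10 passed. Relb was higher in ST-HSC, with 12.8, 12.6, 10.4 and 13.6 CPM against 7.01, 9.37, 9.01 and 5.18 CPM, a log2 difference of 0.69 ± 0.25 (SE) and an adjusted p of 0.046. Nfkbiz differed by 0.53 ± 0.18 (SE) with an adjusted p of 0.037 and overlapping libraries. These 3 calls were close to the threshold. That of Nfkbia was lost without young LT-HSC library 3 or 4 or young MPP library 3 or 4 (adjusted p up to 0.093). That of Relb was lost in 9 of 18 other settings (up to 0.16), among them the omission of any young ST-HSC library or of young MPP library 1, 3 or 4. That of Nfkbiz was lost in 7 of 18 (up to 0.14), which were no count filter and the omission of young ST-HSC library 1, 2 or 3 or young MPP library 1, 3 or 4.

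In aged mice Nfkbie and Nfkb1 were lower and Nfkbiz was higher in LT-HSC than in ST-HSC and MPP. The share of the 10 genes called was no larger than that of all genes. For Nfkb1 and Nfkbie the age change in LT-HSC did not differ from that in ST-HSC or MPP beyond the threshold (adjusted p 0.092 to 0.48). In young mice the log2 difference of Nfkb1 between LT-HSC and ST-HSC was -0.17 (adjusted p 0.13). Between aged LT-HSC and aged ST-HSC, 3 of 10 genes were called, beside 32.3% of all genes. Aged ST-HSC libraries had 36.7, 22.8, 37.6 and 29.1 CPM of Nfkbie, all above the 10.9 to 19.3 CPM of aged LT-HSC, where 28.1% of tested genes did not overlap. The LT-HSC level was 2.04-fold lower, a log2 difference of -1.03 ± 0.20 (SE) with an adjusted p of 0.00027. Nfkb1 differed by -0.31 ± 0.07 (SE) with an adjusted p of 0.00099, from 251 ± 16.7 CPM in LT-HSC and 311 ± 34.5 CPM in ST-HSC (SD, n = 4). Without aged ST-HSC libraries 2 and 3 and library 1 of young LT-HSC it was -0.17 with an adjusted p of 0.085. Nfkbiz was 1.62-fold higher in aged LT-HSC, a log2 difference of 0.70 ± 0.18 (SE) with an adjusted p of 0.0041, and only the lowest LT-HSC library (512 CPM) overlapped the highest ST-HSC one (515 CPM).

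Between aged LT-HSC and aged MPP, 5 of 10 genes were called, beside 56.8% of all genes. Nfkbie (-0.82 ± 0.20, SE) and Nfkb1 (-0.30 ± 0.07) were lower in LT-HSC on the log2 scale, with adjusted p of 0.0012 and 0.00068, and neither overlapped, like 51.2% of tested genes. Nfkbiz was 2.35-fold higher, with 512 to 809 CPM against 239 to 324 CPM and an adjusted p of 4.6e-06. Bcl3 differed by 0.84 ± 0.34 (SE) with an adjusted p of 0.04 and overlapping libraries. Its call was lost in 6 of 19 other settings, with adjusted p up to 0.14: no count filter, a fit of the 2 groups alone, and the omission of aged LT-HSC library 2 or 3 or aged MPP library 1 or 3, and the difference ranged from 0.58 to 1.63. Tnfaip3 differed by -1.16 ± 0.36 (SE) with an adjusted p of 0.0096. That call was lost in a fit of the 2 groups alone, without aged MPP library 4, and without libraries 2 and 4, where the difference was -0.38 with an adjusted p of 0.38.

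Between aged ST-HSC and aged MPP, 1 of 10 genes was called, beside 29.9% of all genes: Nfkbiz, higher in ST-HSC by 0.54 ± 0.18 (SE) on the log2 scale with an adjusted p of 0.025. It was lost in 7 of 19 other settings (adjusted p up to 0.10), among them the omission of aged ST-HSC library 1 or 2 or aged MPP library 3 or 4. By mean level Nfkbiz was thus ordered aged LT-HSC (668 CPM), aged ST-HSC (412 CPM), young ST-HSC (288 CPM), aged MPP (284 CPM), young LT-HSC (264 CPM) and young MPP (200 CPM). Aged LT-HSC differed from its neighbour aged ST-HSC beyond the test's threshold, and the 3 groups between 264 and 288 CPM overlapped in their libraries.

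Rel, which encodes the lymphoid and myeloid subunit c-Rel, was lower in LT-HSC at both ages. It had 25 ± 6.26 CPM in young LT-HSC against 42.5 ± 5.86 in ST-HSC and 42.6 ± 3.94 in MPP, and 20.4 ± 5.82 CPM in aged LT-HSC against 49.6 ± 9.85 in ST-HSC and 53.3 ± 1.14 in MPP (SD, n = 4). The log2 differences of LT-HSC from ST-HSC and MPP were -0.76 and -0.77 in young and -1.28 and -1.39 in aged mice, with adjusted p of at most 0.0033. In the same order, these comparisons called 12.5%, 37.2%, 32.3% and 56.8% of all genes. No aged LT-HSC library overlapped aged ST-HSC or aged MPP, as was so for 28.1% and 51.2% of tested genes.

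The other genes of the pathway were taken from 4 lists. Of 17 tested receptors and ligands, 4 rose and 1 fell with age in LT-HSC, 2 rose and 1 fell in ST-HSC, and 4 rose and none fell in MPP, beside 18.9%, 5.79% and 9.79% of all genes called. Il1r1, the signalling receptor of interleukin-1, rose in all 3 populations. It went from 11.6 ± 3.54 to 35.0 ± 3.44 CPM in LT-HSC (log2 change 1.59, adjusted p 1.5e-07), from 78.9 ± 15.2 to 160 ± 29.3 CPM in ST-HSC (1.02, 8e-05) and from 118 ± 3.67 to 197 ± 12.7 CPM in MPP (0.74, 0.0014; SD, n = 4). Tnfrsf1b, the second receptor of TNF, rose in LT-HSC from 175 ± 21.5 to 244 ± 11.6 CPM (0.48, adjusted p 0.00073). Tnfrsf13c, the receptor of the B cell survival factor BAFF, fell in LT-HSC from 8.73 ± 1.79 to 3.58 ± 0.741 CPM (-1.28, adjusted p 0.0037). In MPP it rose from 7.61 ± 0.940 to 18.1 ± 5.14 CPM (1.25, adjusted p 0.0058), a call lost without aged libraries 2 and 4 (adjusted p 0.17).

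Of 38 adaptors and kinases, 4 were called higher and 4 lower in LT-HSC, 1 lower in ST-HSC, and 2 higher in MPP. That is 21.1%, 2.63% and 5.26% of the list, beside 18.9%, 5.79% and 9.79% of all genes called. Traf2 and Traf5, adaptors of TNF family receptors, fell in LT-HSC, Traf2 from 55.2 ± 6.05 to 38.0 ± 8.69 CPM (adjusted p 0.0037) and Traf5 from 11.3 ± 2.01 to 6.16 ± 2.5 CPM (adjusted p 0.008). Traf1, an adaptor whose gene is itself a target of NF-κB, rose in MPP from 2.25 ± 0.383 to 8.79 ± 3.64 CPM, a log2 change of 1.96 ± 0.26 (SE) with an adjusted p of 1.6e-05. Without aged libraries 2 and 4 it was 1.40 with an adjusted p of 0.0079, so that call held. The age change of Traf1 was smaller in LT-HSC than in MPP, by a log2 difference of -1.56 (adjusted p 0.0035), and smaller in ST-HSC than in MPP, by -1.66 (adjusted p 0.021).

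Of 22 other negative regulators, 5 were called higher in LT-HSC, 5 in ST-HSC and 4 in MPP, and none was called lower in any of the 3. That is 22.7%, 22.7% and 18.2% of the list, beside 18.9%, 5.79% and 9.79% of all genes called in either direction. Irak3, a brake on Toll-like and interleukin-1 receptor signalling, rose in LT-HSC from 83.1 ± 9.19 to 161 ± 19.9 CPM (log2 change 0.95, adjusted p 6.3e-07). Its age change was larger in LT-HSC than in ST-HSC by 0.76 (adjusted p 0.0055) and than in MPP by 0.93 (adjusted p 0.00037). Tnip3, which encodes a partner of A20, rose in LT-HSC from 35.7 ± 3.98 to 77.8 ± 16.2 CPM (1.12, adjusted p 0.00031). Tax1bp1, another A20 partner, rose in LT-HSC (0.49), ST-HSC (0.40) and MPP (0.32), with adjusted p of 7.8e-05, 0.0026 and 0.0098; without aged MPP libraries 2 and 4 the MPP call was lost (adjusted p 0.089). Zfp36, which encodes the mRNA-decay factor tristetraprolin and is also on the list of immediate early genes, rose in LT-HSC (1.34), ST-HSC (1.11) and MPP (1.19), with adjusted p of 0.00024, 0.0046 and 0.0016.

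Of 42 reported target genes, 7 were called higher and 3 lower in LT-HSC, 6 higher in ST-HSC and 8 higher in MPP. That is 23.8%, 14.3% and 19% of the list, beside 18.9%, 5.79% and 9.79% of all genes called. Median log2 changes were 0.09, 0.22 and 0.41, beside 0, 0.01 and 0 over all tested genes. Ier3, an early stress response gene, rose in LT-HSC from 45.7 ± 5.23 to 104 ± 15.8 CPM (adjusted p 5.5e-05), in ST-HSC from 42.6 ± 11.9 to 93.5 ± 12.7 CPM (0.00046) and in MPP from 39.9 ± 7.71 to 89.2 ± 19.6 CPM (0.00019). Ptgs2, the inducible cyclooxygenase, rose in LT-HSC from 18.4 ± 11.0 to 100 ± 30.4 CPM (log2 change 2.43, adjusted p 0.0017). Irf5, a transcription factor of inflammatory cytokine genes, fell there from 18.8 ± 3.46 to 9.48 ± 1.44 CPM (-0.99, adjusted p 8e-04). In ST-HSC the innate receptor gene Clec4e rose from 12.6 ± 3.79 to 37.3 ± 15.3 CPM (1.57, adjusted p 0.00072). In MPP the cell cycle gene Ccnd1 rose from 52.2 ± 4.92 to 81.6 ± 4.52 CPM (0.64, adjusted p 0.0038).

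The 10 genes did not move as one across libraries. After group means were removed, the correlation of log2 CPM over the 24 libraries ran from -0.53 to 0.71 over the 45 pairs of the 10 genes, with a median of 0.18 and 13 pairs below 0. The highest was between Nfkb2 and Nfkbie (0.71) and the lowest between Nfkbid and Tnfaip3 (-0.53). Of the 45 pairs, 6 exceeded 0.5, among them Nfkb2 with Nfkbia (0.56). The values of a pair come from the same libraries and share their depth and scaling, and the correlations are given as a description.

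For each gene, the 3 genes of most similar pattern were found by Pearson's r over the 6 group means of log2 CPM among 9428 genes, those with a mean of at least 10 CPM less predicted gene models and the gene itself. With 6 points r is a coarse measure. Genes like Nfkbiz included Tdrd3 (0.994) and Klf6 (0.994), and Bcl3 was most like Nsmaf (0.997), Gcc1 (0.994) and, again, Tdrd3 (0.992). Tnfaip3 was most like Dync1li1 (0.995), Alox5ap (0.989) and Tank (0.977), the last encoding an adaptor of TRAF proteins. The nearest gene to Nfkbia was B2m (0.98), that to Nfkbie was Nagk (0.98) and that to Nfkbid was Fbxl4 (0.998).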

How the data were processed

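Counts per gene were deposited by the authors as raw integers in 1 table of 24421 gene lines and 24 libraries, not normalized as judged from the values. Reads were processed with Trim Galore, HISAT2 and featureCounts on build mm10, per the submitters' processing notes, with tool versions, gene annotation and strandedness not given in the sources here. Per the labels' protocols, cDNA was made with not-so-random primers and libraries with a Nextera XT kit.

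Genes passing filterByExpr (14205 genes, 99.9% of counts) were fitted in edgeR 4.0.16 (R 4.3.3) with TMM factors and 1 mean per group over all libraries, leaving 18 residual degrees of freedom. The 12 comparisons were age within each population, differences of those age changes, and population pairs within each age. Tests were two-sided, with Benjamini-Hochberg adjustment over tested genes and a threshold of 0.05. The script was tested on simulated data. Intervals are 95% intervals of the fitted log2 change.

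DESeq2 1.42.0, limma-voom (limma 3.58.1), other scalings and filters, a replicate block and the omission of libraries were the alternatives. They include 1 chosen after seeing the data, without aged MPP libraries 2 and 4. The genes, lists and alternatives were chosen with earlier results of these data known, and the target genes are those reported in general for the pathway. Pathway genes are named by smallest p in each list, up to 4 for an age comparison and 2 for a population comparison, and not all genes that the rules take are reported here. No pair of libraries was identical. Coordinates are from GENCODE M21 (GRCm38), and promoters from RefSeq (GRCm38.p6).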

Additional observations from a re-analysis of the deposited data

Results flagged for a closer look

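Of 60 combinations of gene and group, 3 had a library far from the other 3 of its group by Dixon's criterion, and chance flags about 1 in 20 groups. Nfkb2 had 71.0 CPM in aged LT-HSC library 3, against 57.8, 57.4 and 59.3 CPM. Nfkbie had 19.3 CPM in young ST-HSC library 4, against 31.4, 29.9 and 31.5 CPM. Nfkbie also had 25.8 CPM in young MPP library 3, against 20.8, 21.1 and 20.6 CPM.

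The age change of Nfkbiz differed between LT-HSC and MPP by 0.83 on the log2 scale in the test of the difference itself (edgeR's quasi-likelihood test, adjusted p 0.038).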

How the results depend on the processing

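Of 17 calls of the 10 genes over the 12 comparisons, 6 held in every alternative tried: Nfkbiz for age in LT-HSC, for aged LT-HSC against aged ST-HSC and against aged MPP, Nfkbie in the same 2 population comparisons, and Nfkb1 for aged LT-HSC against aged MPP. No called value changed sign. Values that were not called changed sign in 111 combinations of gene, comparison and setting. No scaling moved the median of all genes by over 0.1.

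For age, the number of the 10 genes called was 2 in LT-HSC, 0 in ST-HSC and 2 in MPP. In LT-HSC it was 1 without aged ST-HSC libraries 2 and 3 and library 1 of young LT-HSC, and 1 to 2 when single libraries were left out. In ST-HSC it was 1 with DESeq2 and 0 to 1 without single libraries. In MPP it was 0 without aged libraries 2 and 4, and 2 to 3 without single libraries. For the differences of age changes, LT-HSC against ST-HSC had 0, and 1 with DESeq2 or limma-voom and 0 to 1 without single libraries. LT-HSC against MPP had 1, and 2 with DESeq2, 0 with no count filter, 0 without aged MPP libraries 2 and 4 and 0 to 2 without single libraries. ST-HSC against MPP had 0, and 1 with DESeq2 and 0 to 1 without single libraries.

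Between populations, young LT-HSC against young MPP had 1, and 3 with DESeq2, upper-quartile factors or the compared groups only, 2 with the stricter filter or without the 3 libraries above, and 0 to 3 without single libraries. Young ST-HSC against young MPP had 2, and 1 with limma-voom, 0 with no count filter, 4 with the compared groups only and 0 to 2 without single libraries. Aged ST-HSC against aged MPP had 1, and 2 with DESeq2, limma-voom, upper-quartile factors, the stricter filter or without aged MPP libraries 2 and 4, 0 with the compared groups only or without the 3 libraries above, and 0 to 2 without single libraries.

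The replicate block was the library number for age within a population, which joins young and aged libraries from different mice. For all other comparisons it was the age together with the number. With the block, 1 gene was called for age in ST-HSC (Nfkbiz, adjusted p 0.011) and for LT-HSC against ST-HSC in age change (Nfkbiz, 0.0038). The block called 2 genes for LT-HSC against MPP in age change (Tnfaip3 added, 0.035), for young LT-HSC against young MPP (Nfkbiz added, 0.0051) and for aged ST-HSC against aged MPP (Relb added, 0.034), and it added Nfkbiz for age in MPP (0.0056). The labels do not say that a number marks a mouse, and the numbers were not taken to pair the libraries. Deviations of same-numbered libraries of one age correlated between -0.044 and 0.115 over 24 pairs (median 0.037, 4 over 0.1). The median was 0.009 over 24 same-numbered pairs that differed in both age and population. Among 4 numbers, 14 of 24 libraries correlated best with their own number, which is a hint from the data and not a statement of the design.

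Counts of all genes called moved by over 1.5 times in these cases. For age in ST-HSC, 823 genes became 534 with the compared groups only, 453 without the 3 libraries above, and 543 and 503 without young ST-HSC library 2 and library 3. For age in MPP, 1391 became 914 without aged library 4 and 520 without libraries 2 and 4. For LT-HSC against ST-HSC in age change, 575 became 944 with DESeq2, 897 without the 3 libraries and 377 without young LT-HSC library 3. For LT-HSC against MPP, 1411 became 841 without aged MPP libraries 2 and 4. For ST-HSC against MPP, 66 became 171 with DESeq2, 18 with limma-voom, 25 with the compared groups only, 24 without the 3 libraries and 28 without the 2 aged MPP libraries. For aged ST-HSC against aged MPP, 4244 became 2698 without the 3 libraries and 2688 without the 2 aged MPP libraries. The causes were not tested.

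Relb had at most 511 and Bcl3 at most 923 counts per group of 4 libraries, and a missed threshold there does not show that levels were equal.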
